A study of Mus musculus with 8 samples.

Results

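The ATR kinase and 9-1-1 clamp genes were followed in the RNA of pachytene spermatocytes with and without *Arid1a* excision. They were taken by name as 10 genes: the kinase *Atr*, its partner *Atrip*, the activators *Topbp1* and *Etaa1*, the clamp loader *Rad17*, the clamp subunits *Rad9a*, *Rad1* and *Hus1*, and the germ-cell paralogs *Rad9b* and *Hus1b*. All 10 were found by Entrez identifier among the 21058 genes of the count and TPM tables, and all 10 passed the minimum of 10 counts summed over the libraries. RNA was sequenced from 4 *Arid1a* WT and 4 *Arid1a* cKO libraries. Excision in the *Arid1a* cKO used 1 copy of *Stra8-Cre*, a transgene active from spermatogonia onwards, on *Arid1a* fl/fl. The *Arid1a* WT males were *Arid1a* fl/fl or *Arid1a* fl/+ without the transgene, so both genotypes carried floxed *Arid1a*, an allele kept on a CD1 background. Spermatocytes were enriched from the pooled testes of adult males by Sta-Put, which separates dissociated testis cells by their sedimentation under gravity. Excision by *Stra8-Cre* is incomplete, and the *Arid1a* cKO fractions therefore held spermatocytes that still expressed ARID1A.

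ATR is a protein kinase that responds to single-stranded DNA coated with RPA, to which it is brought by ATRIP. The 9-1-1 clamp is a ring of RAD9, RAD1 and HUS1 that the RAD17 clamp loader places on DNA, where it recruits TOPBP1 to switch the kinase on. ETAA1 activates ATR through RPA, without the clamp. In spermatocytes, ATR acts on the unsynapsed axes and chromatin of the X and Y, where phosphorylation of H2AX accompanies meiotic sex chromosome inactivation, and RAD9B and HUS1B are clamp subunits found mainly in germ cells. The comparison of genotypes asked whether transcripts for this machinery were present at the same level when ARID1A was depleted. These libraries measure RNA and not protein. By immunofluorescence, the paper reports that ATR, phosphorylated H2AX and MDC1 still gathered on the X and Y of pachytene spermatocytes without ARID1A.

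Of the 10 genes, 9 had less RNA and 1 had more in *Arid1a* cKO than in *Arid1a* WT. *Rad17* was the gene that rose. All 10 passed edgeR's quasi-likelihood test, with p-values adjusted by Benjamini-Hochberg over all 17643 genes tested and a threshold of 0.05 (below, the edgeR adjusted p). Calls were common in these libraries: 74.0% of the genes tested were called, 37.5% lower and 36.5% higher in *Arid1a* cKO. The libraries of the genotypes did not overlap at any of the 10 genes, which was also the case at 68.9% of all genes tested. The median log2 fold change was -0.76 over the 10 genes and -0.02 over all genes tested. With so many genes called, a call alone says little about a gene here, and sizes and directions are given for each. In limma on log2(TPM + 0.1), 38.3% of all genes were called lower and 31.7% higher, with a median of -0.097. A scaling added after the data were seen brought the TPM of the listed genes to the same sum in every library. In the same limma fit on those TPM, 43.2% of all genes were called lower and 27.5% higher, with a median of -0.24. The 10 genes kept their directions and calls on that scale, with *Rad17* at 0.86 and *Atr* at -2.05.

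Values below are CPM (estimated counts scaled to the library size after TMM normalization) when a gene is compared between genotypes, and TPM, which is scaled to transcript length, when genes are compared with each other. Libraries held between 15850961 and 22044507 estimated counts. *Arid1a* RNA was at 105, 128.5, 121 and 98.8 CPM in the *Arid1a* WT libraries and at 76.4, 81.0, 82.9 and 78.3 CPM in the *Arid1a* cKO libraries, a log2 fold change of -0.51 (edgeR adjusted p = 2.31e-05). These counts cover the whole gene, and the floxed exons were not measured separately. Marker genes of other testis cells also differed between the genotypes. All 12 spermatid markers were called higher in *Arid1a* cKO, with a summed level of 2076 to 2299 CPM in *Arid1a* WT and 9664 to 9959 CPM in *Arid1a* cKO libraries. All 6 Sertoli cell markers were called lower, from summed levels of 454 to 516 CPM to 136 to 140 CPM, as were all 5 Leydig cell markers, from 54.1 to 57.0 CPM to 6.51 to 6.84 CPM. Of 8 spermatogonial markers 7 were called higher and 1 lower (sums of 190.4 to 195 and 172 to 184 CPM). The lower one was *Id4*, whose mean went from 90.3 to 14.4 CPM and set the fall of that sum. Of 7 leptotene and zygotene markers 4 were called higher and 3 lower (201 to 234 and 225 to 234 CPM). Their sum joins opposite changes, such as means of *Spo11* from 134 to 21.0 CPM and of *Rec8* from 23.8 to 134 CPM. Of 5 tested macrophage and blood markers 3 were called higher and 1 lower (3.36 to 4.32 and 7.54 to 8.77 CPM). Of 8 genes marking pachytene spermatocytes, all of them detected, 3 were called higher and 5 lower, with summed levels of 7676 to 9012 CPM in *Arid1a* WT and 6392 to 6867 CPM in *Arid1a* cKO. *Piwil1*, a pachytene piRNA pathway gene, had the largest change of these, a log2 fold change of -3.88. None of the markers tested was at 0 counts in every library. In bulk RNA, fewer cells of a type and less RNA per cell cannot be told apart, and the part of these shifts in the results for the 10 genes was not tested.

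**Figure D1:**
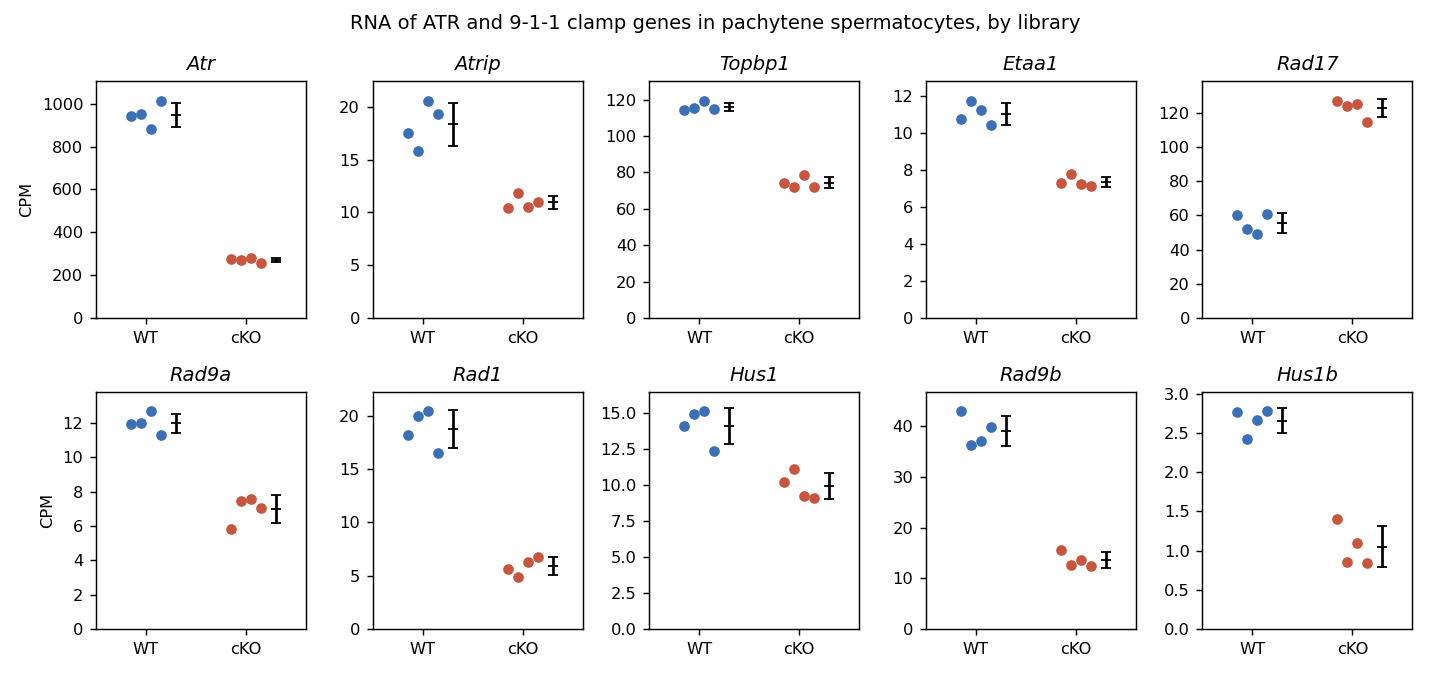
Transcript abundance of the 10 genes by library. Each panel shows 1 gene, the vertical axis is CPM and starts at 0, points are the 4 *Arid1a* WT (blue) and 4 *Arid1a* cKO (red) libraries, and the bar beside them is the mean with its SD. All *Arid1a* cKO points lie below the *Arid1a* WT points in 9 panels and above them in the panel of *Rad17*.

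*Atr* encodes the kinase itself (GRCm38 chromosome 9, 95857597 to 95953217). It was measured at 941, 953, 882 and 1014 CPM in the *Arid1a* WT libraries and 275, 272, 282 and 259 CPM in the *Arid1a* cKO libraries. Every *Arid1a* cKO library was far below the lowest *Arid1a* WT library, and the libraries of each genotype were close to each other. Means of 948 ± 54.4 and 272 ± 9.98 CPM (SD, n = 4 each) put *Arid1a* cKO 3.48-fold lower (log2 fold change -1.80, standard error 0.06, edgeR adjusted p = 7.18e-13). Of all genes tested, 4.37% had a log2 fold change as low or lower. The estimated counts behind these values were 4024 or more in every library. Antisense genes *1700065D16Rik* and *Gm16794* cover 3.07% and 1.96% of the exon bases of *Atr* in GENCODE M21. Whether counting used the strand of the reads was not stated. If it did not, reads over those stretches cannot be assigned to a strand.

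*Atrip*, whose product binds ATR and takes it to RPA, lies on chromosome 9 from 109059747 to 109074124. It was at 17.5, 15.8, 20.6 and 19.3 CPM in *Arid1a* WT and at 10.4, 11.8, 10.5 and 11.0 CPM in *Arid1a* cKO libraries. The genotypes did not overlap, and the *Arid1a* WT libraries were the more spread. The log2 fold change was -0.74 (standard error 0.09, edgeR adjusted p = 2.77e-06), a 1.67-fold difference. It was -0.94 in edgeR with offsets for transcript length. In limma on log2(TPM + 0.1) it was -1.01, and -1.16 once the TPM were rescaled. *Trex1*, on the same strand, shares 16.0% of the exon bases of *Atrip* and was at 0 CPM in *Arid1a* cKO and 0.138 ± 0.276 CPM (SD, n = 4) in *Arid1a* WT. *Atr* TPM was 11.2 ± 2.05 times *Atrip* TPM (SD, n = 4) in *Arid1a* WT, with a range of 8.29 to 13.0. It was 5.99 ± 0.515 times (SD, n = 4) in *Arid1a* cKO, with a range of 5.36 to 6.55. The ratio was lower in every *Arid1a* cKO library than in any *Arid1a* WT library, and is given as a description.

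Both activators fell by less than 1 log2 unit. *Topbp1* (chromosome 9, 103305167 to 103350428), the scaffold that the clamp recruits to activate ATR, was at 114, 116, 119 and 115 CPM in *Arid1a* WT and at 74.3, 72.2, 78.6 and 72.2 CPM in *Arid1a* cKO libraries. The libraries of each genotype were tightly grouped and well apart, with a log2 fold change of -0.64 (standard error 0.05, edgeR adjusted p = 1.03e-08). Across the alternative settings it ranged from -0.98 to -0.61. *Etaa1* (chromosome 11, 17938753 to 17953875) encodes the RPA-bound activator and was at 10.7, 11.8, 11.2 and 10.4 CPM in *Arid1a* WT and at 7.32, 7.76, 7.23 and 7.13 CPM in *Arid1a* cKO libraries. Its genotypes did not overlap either, with a log2 fold change of -0.58 (standard error 0.08, edgeR adjusted p = 1.03e-05). Falls at least as large as those of *Topbp1* and *Etaa1* were seen at 27.3% and 29.3% of all genes tested.

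*Rad17*, the subunit that gives the clamp loader its specificity for 9-1-1, moved the other way. It lies on chromosome 13 from 100617164 to 100651061. It was at 60.5, 52.0, 48.9 and 61.0 CPM in *Arid1a* WT and at 127, 124, 125 and 115 CPM in *Arid1a* cKO libraries. The lowest *Arid1a* cKO library was well above the highest *Arid1a* WT library. Means of 55.6 ± 6.09 and 123 ± 5.43 CPM (SD, n = 4 each) gave a 2.21-fold rise (log2 fold change 1.14, standard error 0.07, edgeR adjusted p = 1.74e-09). A rise as large or larger was found at 19.4% of all genes tested. Fits without 1 library gave values from 1.09 to 1.20. *Ak6*, on the opposite strand, overlaps 0.904% of its exon bases.

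The 3 canonical clamp subunits fell to different extents. *Rad1* (chromosome 15, 10486018 to 10499063), which has no paralog among the clamp genes, was at 18.2, 20.0, 20.4 and 16.5 CPM in *Arid1a* WT and at 5.60, 4.85, 6.32 and 6.75 CPM in *Arid1a* cKO libraries. Every *Arid1a* cKO value was under 7 CPM and every *Arid1a* WT value over 16 CPM. The fall was 3.19-fold (log2 fold change -1.67, standard error 0.11, edgeR adjusted p = 2.14e-09). *Rad9a* (chromosome 19, 4195196 to 4201672), the RAD9 of all cells, was at 12.0, 12.0, 12.7 and 11.3 CPM in *Arid1a* WT and at 5.81, 7.48, 7.56 and 7.07 CPM in *Arid1a* cKO libraries. These libraries did not overlap, and the log2 fold change was -0.78 (standard error 0.09, edgeR adjusted p = 2.73e-06). *Hus1* (chromosome 11, 8993137 to 9011236) was at 14.1, 14.95, 15.1 and 12.4 CPM in *Arid1a* WT and at 10.2, 11.1, 9.28 and 9.12 CPM in *Arid1a* cKO libraries. The lowest *Arid1a* WT and highest *Arid1a* cKO libraries were close, and its log2 fold change of -0.51 (standard error 0.09, edgeR adjusted p = 0.000143) was the smallest of the 10 in size. *Ppp1ca*, on the opposite strand, overlaps 9.53% of the exon bases of *Rad9a* and rose in *Arid1a* cKO by 0.59 log2 units.

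Both germ-cell paralogs fell by more than 1 log2 unit. *Rad9b* (chromosome 5, 122323223 to 122354270) was at 42.9, 36.4, 37.1 and 39.9 CPM in *Arid1a* WT and at 15.7, 12.7, 13.7 and 12.3 CPM in *Arid1a* cKO libraries. All *Arid1a* cKO values were less than the lowest *Arid1a* WT value by a wide margin, a 2.87-fold fall (log2 fold change -1.52, standard error 0.08, edgeR adjusted p = 3.70e-10). *Pptc7* runs on the opposite strand over 23.2% of the exon bases of *Rad9b* and rose from 40.7 ± 1.08 to 88.4 ± 2.61 CPM (SD, n = 4 each), so a share of the *Rad9b* count cannot be told apart from *Pptc7* if strand was not used. *Hus1b* (chromosome 13, 30946576 to 30947761) is a gene with 1 annotated transcript. It lies within the span of *Exoc2*, on the same strand, without touching its exons, and was the most weakly detected. Its estimated counts were 56, 53, 53 and 61 in *Arid1a* WT and 26, 15, 23 and 13 in *Arid1a* cKO libraries. In CPM it was at 2.77, 2.42, 2.66 and 2.78 in *Arid1a* WT and at 1.40, 0.856, 1.10 and 0.835 in *Arid1a* cKO. The genotypes remained apart at this depth, with a log2 fold change of -1.32 (standard error 0.19, edgeR adjusted p = 1.80e-05) that ranged from -1.59 to -1.02 across the alternative settings.

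**Figure D2:**
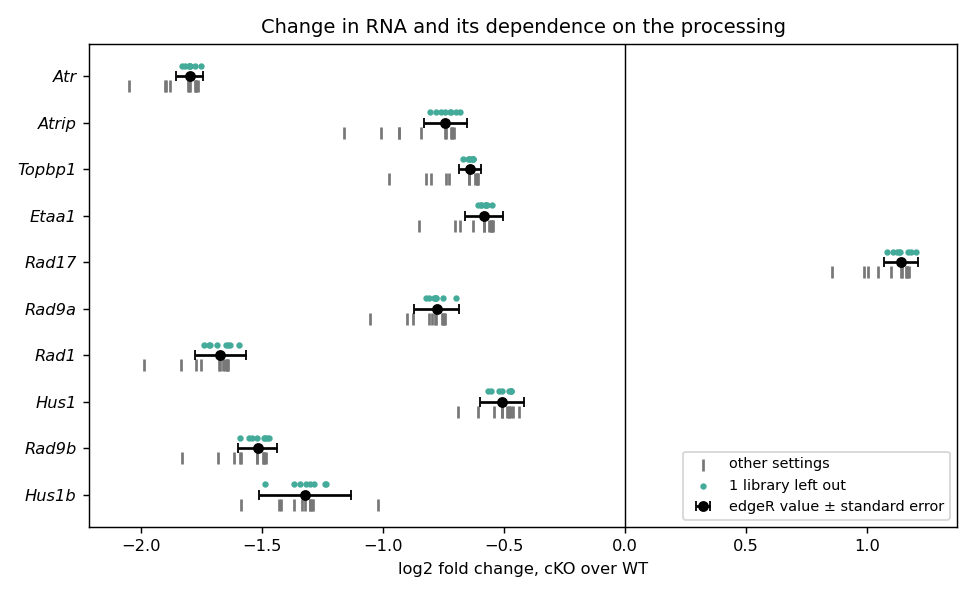
Log2 fold change of each gene, *Arid1a* cKO over *Arid1a* WT. Black points are edgeR values with their standard errors, green points the 8 fits that each left out 1 library, and grey ticks the other settings tried. No value crosses 0, and the falls of *Atr*, *Rad1*, *Rad9b* and *Hus1b* lie beyond 1 log2 unit at every setting. Grey ticks of *Atrip* (to -1.16) and *Rad9a* (to -1.05) also pass 1 log2 unit, in limma fits on TPM.

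The 250 bases before the start of the genes with falls of over 1.5 log2 units, and of the gene that rose, are printed because these genes mark the ends of the range of changes. The sequences are RefSeq's for GRCm38.p6, 5′ to 3′ on the strand of the gene. The window of *Rad9b*, and those of *Topbp1* and *Hus1* counted below, are set by starts that lie inside the outer bounds of these genes. Capitals mark matches on either strand to 4 motifs that were searched, namely a MYB-type motif (AACNGNC), the CRE palindrome (TGACGTCA), the CCAAT box (CCAAT) and the GC box (GGGCGG).
Atr promoter, chr9:95857347-95857596, plus strand: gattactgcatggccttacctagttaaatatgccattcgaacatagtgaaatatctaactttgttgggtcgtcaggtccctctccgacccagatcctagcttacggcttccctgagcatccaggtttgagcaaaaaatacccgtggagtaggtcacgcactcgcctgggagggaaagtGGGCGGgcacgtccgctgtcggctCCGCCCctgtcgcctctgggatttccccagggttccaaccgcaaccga
Rad1 promoter, chr15:10485768-10486017, plus strand: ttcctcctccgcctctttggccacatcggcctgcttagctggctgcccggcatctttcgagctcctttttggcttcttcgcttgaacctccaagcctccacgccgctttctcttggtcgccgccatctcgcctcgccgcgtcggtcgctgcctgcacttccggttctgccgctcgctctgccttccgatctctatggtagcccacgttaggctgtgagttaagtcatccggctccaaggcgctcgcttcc
Rad9b promoter, chr5:122354206-122354455, minus strand: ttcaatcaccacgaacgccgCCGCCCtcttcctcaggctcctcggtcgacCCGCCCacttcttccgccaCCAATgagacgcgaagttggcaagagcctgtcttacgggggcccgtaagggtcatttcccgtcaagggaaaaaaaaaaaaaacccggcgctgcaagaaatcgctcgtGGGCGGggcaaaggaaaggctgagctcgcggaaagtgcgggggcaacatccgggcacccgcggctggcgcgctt
Rad17 promoter, chr13:100651062-100651311, minus strand: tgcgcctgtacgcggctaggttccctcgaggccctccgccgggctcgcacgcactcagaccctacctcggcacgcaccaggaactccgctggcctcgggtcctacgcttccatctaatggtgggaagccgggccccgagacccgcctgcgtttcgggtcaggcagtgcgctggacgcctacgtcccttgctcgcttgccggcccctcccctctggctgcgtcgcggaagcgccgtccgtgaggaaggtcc

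The table of promoters held 9 of the 10 genes and not *Rad9a*. GC boxes were found in 5 of the 9 windows (*Atr*, *Etaa1*, *Hus1*, *Rad9b* and *Topbp1*) and in 32.7% of the 32851 promoter windows of the same length. The MYB-type motif was in 3 of 9 (*Atrip*, *Hus1b* and *Topbp1*) against 27.7% of all windows, and the CCAAT box in 3 of 9 (*Atrip*, *Etaa1* and *Rad9b*) against 33.8%. The CRE palindrome was in 0 of 9 and in 1.55% of all windows. No match of one motif overlapped a match of another in the 9 windows. *Rad1*, which fell, and *Rad17*, which rose, both had none of the 4 motifs in these windows.

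Per transcript length, the order of the genes changed between genotypes. In *Arid1a* WT, *Atr* led with 174 ± 7.57 TPM (SD, n = 4), a level reached by 4.81% of the listed genes. *Topbp1* followed at 43.8 ± 4.03, *Rad17* at 32.0 ± 2.44, *Rad9b* at 30.9 ± 1.41, *Rad1* at 17.6 ± 2.58, *Atrip* at 16.0 ± 2.98, *Rad9a* at 9.56 ± 0.702, *Hus1* at 6.59 ± 0.10, *Etaa1* at 3.95 ± 0.336 and *Hus1b* at 3.73 ± 0.185 TPM (SD, n = 4 each). The libraries overlapped between the neighbours *Rad17* and *Rad9b*, *Rad1* and *Atrip*, and *Etaa1* and *Hus1b*, whose order is thus not resolved. In *Arid1a* cKO, *Rad17* came first at 64.2 ± 2.69 TPM (SD, n = 4), above *Atr* at 46.6 ± 1.14 TPM (SD, n = 4) in every library. *Topbp1* was next at 24.7 ± 1.88 TPM (SD, n = 4). *Rad9b* at 9.61 ± 1.02 and *Atrip* at 7.81 ± 0.640 TPM overlapped, as did *Rad9a* at 5.11 ± 0.768, *Rad1* at 4.86 ± 0.720 and *Hus1* at 4.56 ± 0.908 TPM, each with its neighbour (SD, n = 4 each). *Etaa1* at 2.38 ± 0.0937 and *Hus1b* at 1.34 ± 0.323 TPM (SD, n = 4 each) remained last. *Rad17* TPM was 0.184 ± 0.015 times *Atr* TPM in *Arid1a* WT and 1.38 ± 0.031 times in *Arid1a* cKO (SD, n = 4 each). The listed genes made up 78.1% to 81.1% of all TPM in *Arid1a* WT and 88.1% to 88.6% in *Arid1a* cKO libraries, which moves TPM levels between genotypes but not the order within a library.

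**Figure D3:**
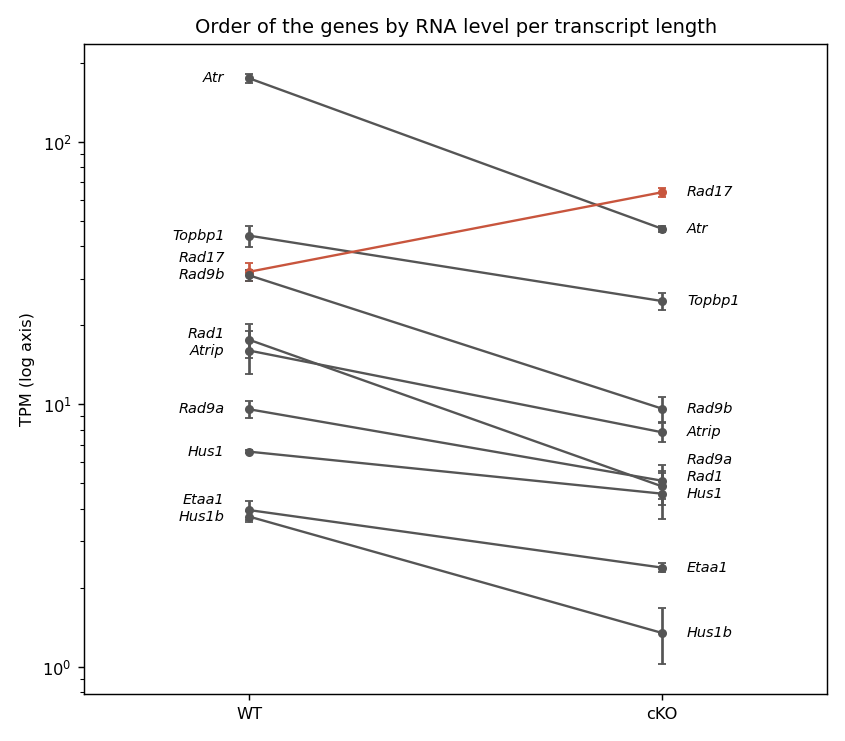
Mean TPM of the 10 genes in *Arid1a* WT and *Arid1a* cKO libraries on a log axis, with bars of 1 SD over 4 libraries. Lines join the same gene, names at either side give the order, and the red line is *Rad17*, which passes *Atr* as *Atr* drops from 174 to 46.6 TPM.

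The paralogs differ enough in sequence for their transcripts to be told apart. The coding sequences of *Rad9a* and *Rad9b* (1167 and 1209 bases in GENCODE M21) were identical at 63.6% of 1079 aligned bases, with no identical run longer than 12 bases. Those of *Hus1* and *Hus1b* (843 and 828 bases) were identical at 63.4% of 827 aligned bases, with no run longer than 11. The most alike stretch of 60 bases in each pair is shown to make this visible, and capitals mark the bases that differ, 17 between *Rad9a* and *Rad9b* and 18 between *Hus1* and *Hus1b*.
Rad9a coding bases 2 to 61: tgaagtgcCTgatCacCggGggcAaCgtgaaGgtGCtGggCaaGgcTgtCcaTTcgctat
Rad9b coding bases 5 to 64: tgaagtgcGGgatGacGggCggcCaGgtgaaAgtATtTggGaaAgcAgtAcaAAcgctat
Hus1 coding bases 500 to 559: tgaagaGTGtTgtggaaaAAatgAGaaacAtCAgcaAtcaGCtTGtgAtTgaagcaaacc
Hus1b coding bases 488 to 547: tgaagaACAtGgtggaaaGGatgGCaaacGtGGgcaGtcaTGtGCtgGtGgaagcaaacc

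Words of 31 bases were compared with the transcripts of all other genes on both strands. *Hus1b* shared 0.0% of its words, *Rad17* 1.41% and *Hus1* 1.58%, while *Rad9b* shared 22.2%, with *Pptc7* as the gene that held most of them, and *Atrip* 16.9%, with *Trex1* as that gene. The other 5 genes shared between 4.70% and 12.0%.

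Within each pair, the germ-cell paralog lost share to the canonical gene. *Rad9b* supplied 77.2%, 75.7%, 75.1% and 77.6% of the TPM of *Rad9a* and *Rad9b* together in the *Arid1a* WT libraries and 73.1%, 62.0%, 65.8% and 60.1% in the *Arid1a* cKO libraries. *Rad9b* was thus the major RAD9 transcript in both genotypes, and the highest *Arid1a* cKO library was only just below the lowest *Arid1a* WT library. The mean share fell from 76.4% ± 1.19 to 65.2% ± 5.74 (SD, n = 4 each), a difference of -11.2 percentage points (p = 0.0286 by a two-sided exact permutation test, which cannot go lower with 4 against 4 libraries). *Hus1b* supplied 36.5%, 34.7%, 37.5% and 35.7% of the TPM of *Hus1* and *Hus1b* in *Arid1a* WT and 29.4%, 15.7%, 26.0% and 21.2% in *Arid1a* cKO libraries. *Hus1b* was the minor HUS1 transcript in every library, and the genotypes did not overlap. Its mean share fell from 36.1% ± 1.19 to 23.1% ± 5.96 (SD, n = 4 each), a difference of -13.1 percentage points (two-sided exact permutation test, p = 0.0286). Taken from CPM in place of TPM, the difference was -6.36 percentage points for *Hus1b* and -10.5 for *Rad9b*, with the same exact permutation p of 0.0286. Without any 1 library, both differences kept their sign at p = 0.0571 (two-sided exact permutation test) and no longer passed 0.05. That is the smallest p this test gives with 3 against 4 libraries, because it doubles the p of the smaller tail. The opposite-strand genes over *Rad9b* and *Rad9a* exons, *Pptc7* (23.2% of exon bases) and *Ppp1ca* (9.53%), both rose in *Arid1a* cKO, and their part in the RAD9 share was not tested. These 2 shares were the only ones tested, and the Benjamini-Hochberg adjusted p was 0.0286 for both.

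Summed over paralogs, RAD9 transcripts went from 40.5 ± 1.84 to 14.7 ± 0.372 TPM and HUS1 transcripts from 10.3 ± 0.216 to 5.90 ± 0.83 TPM, beside *Rad1* at 17.6 ± 2.58 and 4.86 ± 0.720 TPM (SD, n = 4 each). In *Arid1a* WT the order was RAD9, *Rad1* and HUS1. In *Arid1a* cKO, RAD9 remained highest, while *Rad1* and HUS1 lay close to each other.

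**Figure D4:**
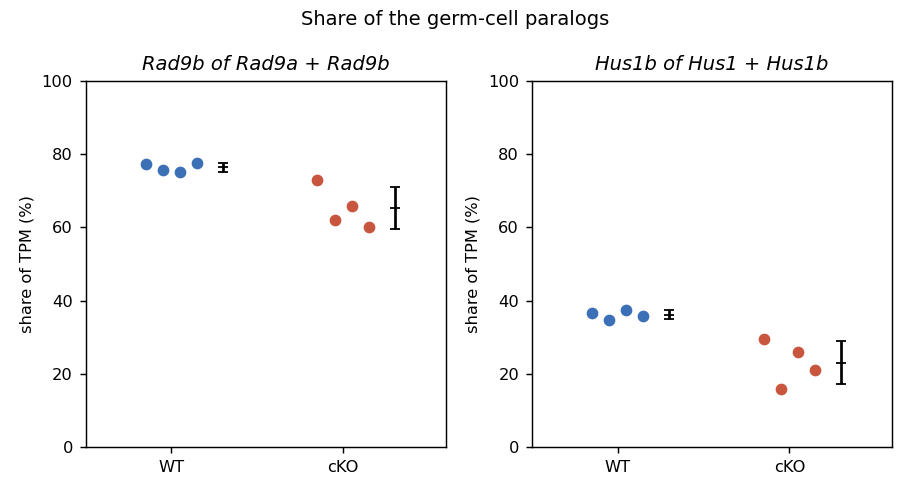
Share of TPM from the germ-cell paralog in each library, in percent, for *Rad9b* of *Rad9a* plus *Rad9b* (left) and *Hus1b* of *Hus1* plus *Hus1b* (right). Points are libraries and bars the mean with its SD over 4 libraries. All *Arid1a* cKO points lie below the *Arid1a* WT points, and they spread more widely.

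The other genes of the ATR pathway did not move as one group. Of 30 such genes, chosen by role and all tested, 13 were called higher, 12 lower and 5 were not called (edgeR adjusted p of 0.05), so that 83.3% were called beside 74.0% of all genes tested. Their median log2 fold change was -0.07. In limma on log2(TPM + 0.1), 12 were called higher and 13 lower, and in the same fit on the rescaled TPM 9 were higher and 16 lower. The list included 10 genes with a called change of at least 1 log2 unit, 8 of them higher and 2 lower, where 20.6% of all genes tested were called and higher by that much and 16.0% lower.

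Upstream of the kinase, RPA coats single-stranded DNA. *Rpa1*, its large subunit, was called lower (363 to 440.2 CPM in *Arid1a* WT, 206 to 217 CPM in *Arid1a* cKO, log2 fold change -0.91), as was *Rpa2* (-0.40), while *Rpa3* was not called (-0.15, edgeR adjusted p = 0.327). Of the 4 small RFC subunits that RAD17 shares with other clamp loaders, *Rfc2* (0.25) and *Rfc4* (0.39) were called higher, and *Rfc3* (-0.11) and *Rfc5* (-0.03) were not called. Among large subunits of other clamp loaders, *Atad5*, which takes part in unloading PCNA, rose from 5.14 to 7.07 CPM to 23.2 to 24.9 CPM (log2 fold change 1.92, edgeR adjusted p = 8.00e-11). *Rfc1* was not called (-0.12) and *Chtf18* was called lower (-0.22). *Rhno1*, whose product binds the 9-1-1 clamp and TOPBP1, was at 30.2 to 34.0 CPM in *Arid1a* WT and 106 to 113 CPM in *Arid1a* cKO libraries (log2 fold change 1.77, edgeR adjusted p = 5.83e-13), and so moved in the direction of *Rad17* and not of the clamp subunits.

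Downstream, 5 of 6 checkpoint kinases and their targets were called higher, beside 36.5% of all genes tested. *Chek1*, the main effector kinase of ATR, went from 6.64 to 8.60 CPM in *Arid1a* WT to 19.2 to 22.8 CPM in *Arid1a* cKO libraries (log2 fold change 1.44, edgeR adjusted p = 2.23e-09). The CDC25 phosphatases that CHK1 restrains also rose, *Cdc25a* by 1.38, *Cdc25b* by 1.08 and *Cdc25c* by 2.07 log2 units, and *Wee1*, the kinase that opposes them, by 0.99. *Chek2*, which acts mainly below ATM, was called lower (-0.44, edgeR adjusted p = 0.0155) with libraries that overlapped. Among the mediators that pass the signal to CHK1, *Tipin* rose from 14.6 to 15.7 CPM to 61.3 to 67.8 CPM (log2 fold change 2.11, edgeR adjusted p = 1.69e-13) and *Clspn* rose by 0.76, while *Timeless*, whose product pairs with TIPIN, was called lower (-0.73). These genes moved in the same libraries as the spermatid markers, which had a median log2 fold change of 2.16, and the part of that shift was not tested.

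Of the related kinases, *Atm* was called higher (0.79) and *Prkdc* lower (-0.24). The chaperone partners of these kinases, *Tti1* and *Tti2*, were called lower, *Tti2* from 29.7 to 30.3 CPM to 11.0 to 12.4 CPM (log2 fold change -1.36, edgeR adjusted p = 4.23e-11), and *Telo2* was not called (0.24, edgeR adjusted p = 0.130). Of 5 meiotic partners and readers of ATR signalling, 4 were called lower, beside 37.5% of all genes tested. *Hormad1*, an axis protein needed to bring ATR to unsynapsed axes, went from 218 to 258 CPM to 93.1 to 111 CPM (log2 fold change -1.20, edgeR adjusted p = 5.75e-10), *Mdc1*, which spreads phosphorylated H2AX over the sex chromosomes, from 572 to 646 CPM to 299 to 317 CPM (-0.98), *H2ax* had a log2 fold change of -0.65 and *Hormad2* of -0.45. *Brca1*, which marks unsynapsed axes, rose by 1.21 log2 units (edgeR adjusted p = 1.33e-09).

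**Figure D5:**
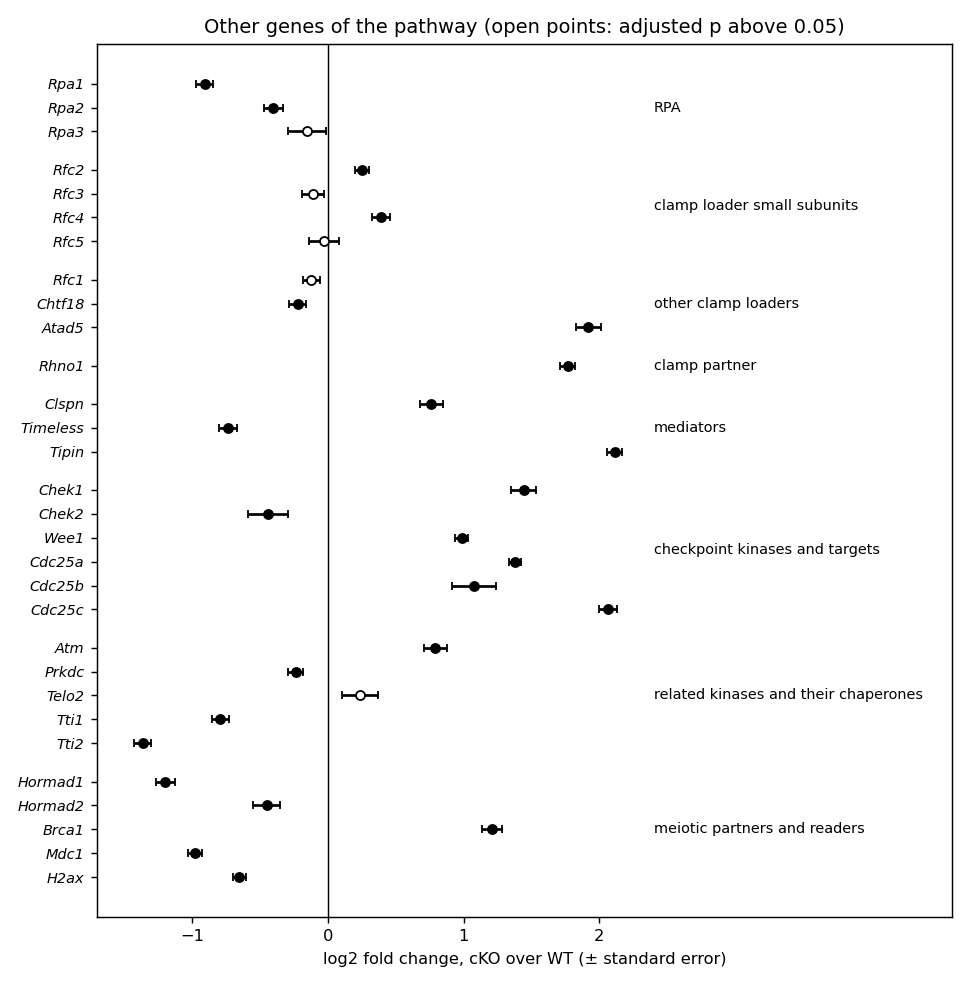
Log2 fold change, *Arid1a* cKO over *Arid1a* WT, with its standard error for 30 other genes of the ATR pathway, grouped by role. Filled points passed an edgeR adjusted p of 0.05 and open points did not. Checkpoint targets lie mostly to the right of 0 and RPA and meiotic partners mostly to the left.

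Among the genes whose profile was most like that of *Atr* over the 8 libraries were *Smarca4* (Pearson's r = 0.9997, chromosome 9, log2 fold change -1.33), which encodes an ATPase of SWI/SNF, and *Smg9* (r = 0.9996, chromosome 7, -2.14), a factor of nonsense-mediated decay. The values describe log2 CPM of 12992 genes, and 3745 of them had r above 0.95, since the 8 libraries fall into 2 genotypes. Among the other 8 genes of the group that fell, the lowest r with *Atr* was 0.896, and for *Rad17* it was -0.97.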

How the data were processed

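Read abundance was quantified by the authors with Salmon and summed to Entrez genes with tximport on mm10 annotation, and the deposited estimated counts are not scaled for library size or length. The deposited TPM are scaled by the authors to the whole transcriptome. The authors' table of fold changes and p-values was not used. Estimated counts were rounded, while the planned test had assumed integers. A sum of 10 counts over the libraries was required, and genes passing it entered edgeR 4.0.16 in R 4.3.3 (TMM, quasi-likelihood, genotype as the only factor, Benjamini-Hochberg over all genes). Standard errors were derived from the fold change and F. Symbols and coordinates came from RefSeq GRCm38.p6, the build that mm10 names, matching 21036 of 21058 identifiers. Exons, coding sequences and transcripts came from GENCODE M21. Paralog shares were tested by exact permutation over 70 assignments of libraries in scipy 1.17.1. Labels call the libraries biological replicates but name no animals, so p-values measure the spread between these libraries. The paper describes 4 RNA extractions per genotype from frozen pellets, without the number of Sta-Put preparations behind them. If there was only 1 per genotype, preparation and genotype cannot be told apart. The 10 genes, the pathway and marker lists and the tests were chosen with earlier results of these data known. Genes named were the 10 genes, *Arid1a*, pathway genes called at 1 log2 unit or more and the 3 genes most like *Atr*, of which 1 is not reported here. Other pathway genes and genes sharing exon bases, and *Piwil1*, *Id4*, *Spo11* and *Rec8*, were named after their values were seen. Alternatives were DESeq2 1.42.0, other scalings and filters, length offsets, limma 3.58.1 on log2(TPM + 1) and log2(TPM + 0.1), the replicate number as a block, paralog shares from CPM or as log2 ratios, an adjusted p of 0.01 and each library left out.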

Additional observations from a re-analysis of the deposited data

Results flagged for a closer look

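In each genotype, 24 sets of 4 library values (CPM, TPM and paralog shares) were searched for 1 value distant from the rest, by Dixon's ratio at its 95% critical value. Of 48 sets, 3 passed, where chance gives about 2.4. *Hus1* TPM was high in *Arid1a* WT replicate 4 (gap divided by range 0.854, at 6.74 TPM against 6.53 to 6.56) and in *Arid1a* cKO replicate 2 (0.885, at 5.92 TPM against 4.02 to 4.24). In CPM, which is not scaled to transcript length, *Hus1* in *Arid1a* cKO replicate 2 was 11.1 against 9.12 to 10.2, and was not apart by the same test. *Rad17* TPM was low in *Arid1a* cKO replicate 4 (0.831, at 60.2 TPM against 65.1 to 66.1), where it was still above every *Arid1a* WT library. The log2 fold change of *Rad17* stayed at 1.09 or more, and that of *Hus1* between -0.56 and -0.47, with each library left out in turn.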

How the results depend on the processing

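All 10 genes kept their direction and their call under the 11 other fits and the 8 fits without 1 library each, with 9 lower and 1 higher in each. The pathway genes called ranged from 24 to 27 over the other settings and from 25 to 28 with a library left out, the highest without *Arid1a* WT replicate 3. With the replicate number as a block, the log2 fold change was -1.80 for *Atr*, 1.15 for *Rad17* and -0.51 for *Hus1*, and no call changed. Same-numbered libraries correlated at 0.162, 0.0125, 0.0852 and -0.137 in their deviations from the group means. Pairs with different numbers ranged from -0.197 to 0.186. These values show no sign of pairing by number, but cannot settle whether same-numbered libraries were prepared together. For the paralog shares, the block kept the differences at -11.2 and -13.1 percentage points with p = 0.125, the smallest p that an exact sign-flip test of 4 pairs allows. With each library left out, the difference ranged from -13.8 to -9.47 percentage points for *Rad9b* and from -15.2 to -10.6 for *Hus1b*. The exact permutation p was 0.0571 each time, the smallest with 3 against 4 libraries when the p of the smaller tail is doubled. *Hus1b* rests on as few as 13 counts in a library, which limits its precision more than that of the other genes.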
